A study of Mus musculus with 192 samples.

Results

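Immediate early genes are the genes that cells transcribe first after a stimulus, from factors already present. 10 of them were followed here, chosen by symbol from the molecule count table: Fos, Fosb, Jun, Junb, Jund, Atf3, Egr1, Ier2, Ier3 and Dusp1, out of 24264 genes. All 10 were in the table and all 10 had molecules. The material was the line R1, mouse embryonic stem cells (ES cells) kept on a layer of irradiated embryonic fibroblasts. Cells were freed of most feeders by settling, depleted of dying cells with annexin V beads, frozen in DMSO, thawed, and loaded on 1 microfluidic chip, where each of 96 chambers, called wells below, can hold a single cell. No well was treated or mutated, and all wells came from 1 culture, which therefore counts as 1 sample: differences between wells are described with their spread, and none carries a p-value.

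Molecules, not reads, were counted, so a level below is the number of molecules of a gene per 10000 molecules of all genes in the same well. The wells were described in 2 ranges of RNA content. The 45 low-RNA wells held at most 40000 gene molecules, from 8774 to 35543 with a median of 22234. The 51 RNA-rich wells held at least 50000, from 51390 to 573648 with a median of 98750, and 0 wells lay between the ranges. Spike-in RNAs, added in equal amount to every chamber, gave a median of 6098 molecules in low-RNA wells and 7992 in RNA-rich wells. The median share of gene molecules from mitochondrial genes was 29.1% in low-RNA wells and 10.4% in RNA-rich wells. All 13 ES cell marker genes checked, Pou5f1, Sox2 and Nanog among them, were detected somewhere in both ranges, which does not show what each well held. Their summed level had a median of 55.6 in low-RNA wells and 95.4 in RNA-rich wells. Empty or damaged chambers were not recognised. The summed level of 14 feeder fibroblast markers was 3.08 to 17.4 in low-RNA wells and 2.91 to 149 in RNA-rich wells. Its median was higher in low-RNA wells, at 8.02 against 5.56. Of these markers, Col3a1, Thy1, Lum, Dcn and Postn were at 0 in low-RNA wells and Lum and Postn in RNA-rich wells. Spike-in totals of wells C03, H03 and H12 stood apart from the rest. Without these 3 wells, 0 of the 10 genes were past 2-fold between the ranges, 6 were above technical noise in RNA-rich wells and 0 in low-RNA wells, and 5 were past 2-fold higher and 1 lower in the keratin-high wells described further on, the same counts as with them.

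The products of these genes form a short-lived relay. Growth factor, calcium and stress signals activate mitogen-activated protein kinases, which act on factors bound at the promoters of immediate early genes, and transcription then starts within minutes without new protein synthesis. Fos and Jun family proteins pair through leucine zippers into AP-1, which activates later genes, whereas Dusp1 removes phosphate from the kinases and so closes a negative feedback loop. Handling of cells, such as enzymatic dissociation, is known to induce many of these genes.

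The promoters of 8 of the 10 genes, all but Egr1 and Ier2, were matched by symbol in a RefSeq table (GRCm38.p6), each as a window of 300 bases, 250 before and 50 after the annotated start. The cyclic AMP response element (CRE) is the binding site of CREB and ATF family factors. Its core TGACG, searched on both strands, was found in the windows of 5 of the 8 genes (Fos, Fosb, Junb, Atf3 and Dusp1), and 20.81% of all 32851 promoters in the table hold it. The full palindrome TGACGTCA, whose letters contain the core on both strands, was found in Dusp1 alone of the 8, and 1.79% of all promoters hold it. The CArG box, the AP-1 site TGANTCA and the ETS core CCGGAA were found in 0 of the 8 windows, against 1.629%, 7.808% and 14.9% of all promoters. These are matches of letters in a short window, and say nothing about binding. Sites more than 250 bases before the start were not searched, so 0 matches do not show that a gene lacks the site. The windows also follow RefSeq starts. That of Jund ends at 70697788, before the GENCODE M21 start at 70698949. By GENCODE the 5′ ends of Atf3 (191218039) and Dusp1 (26562128) lie outside their windows. The windows of Fos, Fosb, Atf3 and Dusp1 are printed 5′ to 3′ on the gene's strand, because the levels of these genes went together across RNA-rich wells, as described further on. That set of genes was put together after the values were seen. Jun, whose level went with theirs, held none of the searched letters. The Junb window, not printed, held the core 106 bases before the start. Junb had rho from 0.174 with Fos to 0.432 with Dusp1, so the core does not mark out the set. Fos lies at chr12:85473640-85473939 on the plus strand, Fosb at chr7:19309996-19310295, Atf3 at chr1:191183284-191183583 and Dusp1 at chr17:26508423-26508722, the last 3 on the minus strand. Capitals mark the TGACG core, its reverse complement CGTCA and the full palindrome.
Fos: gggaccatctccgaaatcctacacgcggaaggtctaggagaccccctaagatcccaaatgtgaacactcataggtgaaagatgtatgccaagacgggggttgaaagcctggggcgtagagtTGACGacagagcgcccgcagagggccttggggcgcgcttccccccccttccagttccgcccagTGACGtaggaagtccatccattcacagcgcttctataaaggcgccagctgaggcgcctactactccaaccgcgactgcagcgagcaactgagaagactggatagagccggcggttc
Fosb: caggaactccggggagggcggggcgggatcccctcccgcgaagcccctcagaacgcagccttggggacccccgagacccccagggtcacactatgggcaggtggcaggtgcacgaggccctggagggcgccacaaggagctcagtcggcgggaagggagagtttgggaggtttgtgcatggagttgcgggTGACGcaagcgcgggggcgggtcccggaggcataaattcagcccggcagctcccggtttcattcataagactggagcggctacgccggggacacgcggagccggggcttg
Atf3: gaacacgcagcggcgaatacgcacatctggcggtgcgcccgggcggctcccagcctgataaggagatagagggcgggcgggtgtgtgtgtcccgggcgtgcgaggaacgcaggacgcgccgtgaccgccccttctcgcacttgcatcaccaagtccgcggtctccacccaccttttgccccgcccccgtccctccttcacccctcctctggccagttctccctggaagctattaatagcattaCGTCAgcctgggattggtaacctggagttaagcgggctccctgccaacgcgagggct
Dusp1: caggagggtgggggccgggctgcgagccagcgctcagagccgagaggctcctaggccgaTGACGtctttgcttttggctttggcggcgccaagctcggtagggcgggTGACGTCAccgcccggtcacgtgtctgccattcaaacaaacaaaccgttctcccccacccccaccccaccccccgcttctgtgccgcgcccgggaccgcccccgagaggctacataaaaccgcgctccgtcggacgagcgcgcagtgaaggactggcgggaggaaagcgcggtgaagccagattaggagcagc
The Fos window held the core 129 and 66 bases before the start, the Fosb window 60 bases before it, and the Atf3 window 7 bases before it on the other strand. In Dusp1 the palindrome began 143 bases before the start, with another core 191 bases before it.

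By GENCODE M21 on GRCm38, the Fos gene spans chromosome 12 from 85473890 to 85477273, Fosb chromosome 7 from 19302696 to 19310051 and Jun chromosome 4 from 95049034 to 95052222. Atf3 was annotated on chromosome 1 from 191170296 to 191218039. Jund spans chromosome 8 from 70698949 to 70700616 and Ier2 chromosome 8 from 84661331 to 84662852, and Ier3 chromosome 17 from 35821684 to 35822923. Junb, on chromosome 8 from 84974484 to 84978718, overlaps Prdx2 on the other strand. Dusp1, annotated on chromosome 17 from 26505590 to 26562128, overlaps Ergic1 on the other strand. Whether strand was used in counting is not given in the sources used here, so reads of overlapping partners may not be told apart. All molecules came from uniquely mapped reads for 9 of the 10 genes, while Jund had 73.5% and is less certain.

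Fos encodes the founding member of the Fos family, which binds DNA only as a partner of Jun proteins. Its level in low-RNA wells was 0 at the lowest, 1.29 at the median and 3.67 at the highest, against 0.110, 1.44 and 5.53 in RNA-rich wells. The low-RNA maximum was that of well H12, with 926 spike-in molecules and a mitochondrial share of 7.58%, against low-RNA medians of 6098 and 29.1%. Fos had a molecule in 41 of 45 low-RNA wells and in all 51 RNA-rich wells. Mean levels were 1.41 ± 0.923 in low-RNA wells and 1.57 ± 1.23 in RNA-rich wells (SD over n = 45 and n = 51 wells), so the ranges overlapped almost entirely. Fosb encodes a close relative with the same partners. Its level ran from 0 over a median of 1.13 to 5.70 in low-RNA wells, against 0, 0.720 and 5.64 in RNA-rich wells. The medians of Fosb differed, but each range held wells near 0 and a well above 5.6. The low-RNA maximum, well D12, stood on 5 molecules in the well with the fewest gene molecules (8774). That of RNA-rich wells, A11, stood on 29.

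Jun encodes the main DNA-binding partner of Fos. Its level was 0, 1.01 and 4.29 (lowest, median and highest) in low-RNA wells and 0, 0.659 and 5.09 in RNA-rich wells. As with Fosb, the median was higher in low-RNA wells and the ranges overlapped. Well H12 also held the low-RNA maximum of Jun. Junb encodes a family member that activates more weakly than Jun at many sites. It had no molecule in 24 of the 45 low-RNA wells and 10 of the 51 RNA-rich wells, with medians of 0 and 0.241 and highest levels of 2.02 and 5.26 in low-RNA and RNA-rich wells. Jund, the family member known for steady expression in unstimulated cells, had levels of 0, 0.387 and 3.66 in low-RNA wells and 0, 0.361 and 1.48 in RNA-rich wells. Its highest level in the low-RNA range, in well A02, stood on 9 molecules.

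Atf3, a leucine zipper factor of the ATF family induced by many stresses, was found in 19 of 45 low-RNA wells and 39 of 51 RNA-rich wells. Its medians were 0 and 0.202, and its highest levels 2.02 and 2.39, in low-RNA and RNA-rich wells. Egr1 encodes a zinc finger factor. It reached 0, 1.01 and 5.39 in low-RNA wells and 0, 0.602 and 8.78 in RNA-rich wells. The highest value was that of well B05, with 100 molecules, and the next RNA-rich well, A03, was at 2.70.

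Ier2 and Ier3 are small genes named for their early response, and Ier3 is linked to cell survival under stress. Ier2 levels were 0, 0.386 and 3.19 in low-RNA wells and 0, 0.709 and 3.31 in RNA-rich wells. Ier3 was the least abundant of the 10, with a molecule in 14 of 45 low-RNA wells and 32 of 51 RNA-rich wells and highest levels of 1.43 and 2.39. Dusp1, the kinase phosphatase, had levels of 0, 0.572 and 2.59 in low-RNA wells against 0, 0.719 and 6.86 in RNA-rich wells. Its RNA-rich maximum, well H05, also stood on 100 molecules, and F12 followed at 4.27. Wells of both ranges thus overlapped for each of the 10 genes, and each gene other than Fos had RNA-rich wells at 0.

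**Figure D1:**
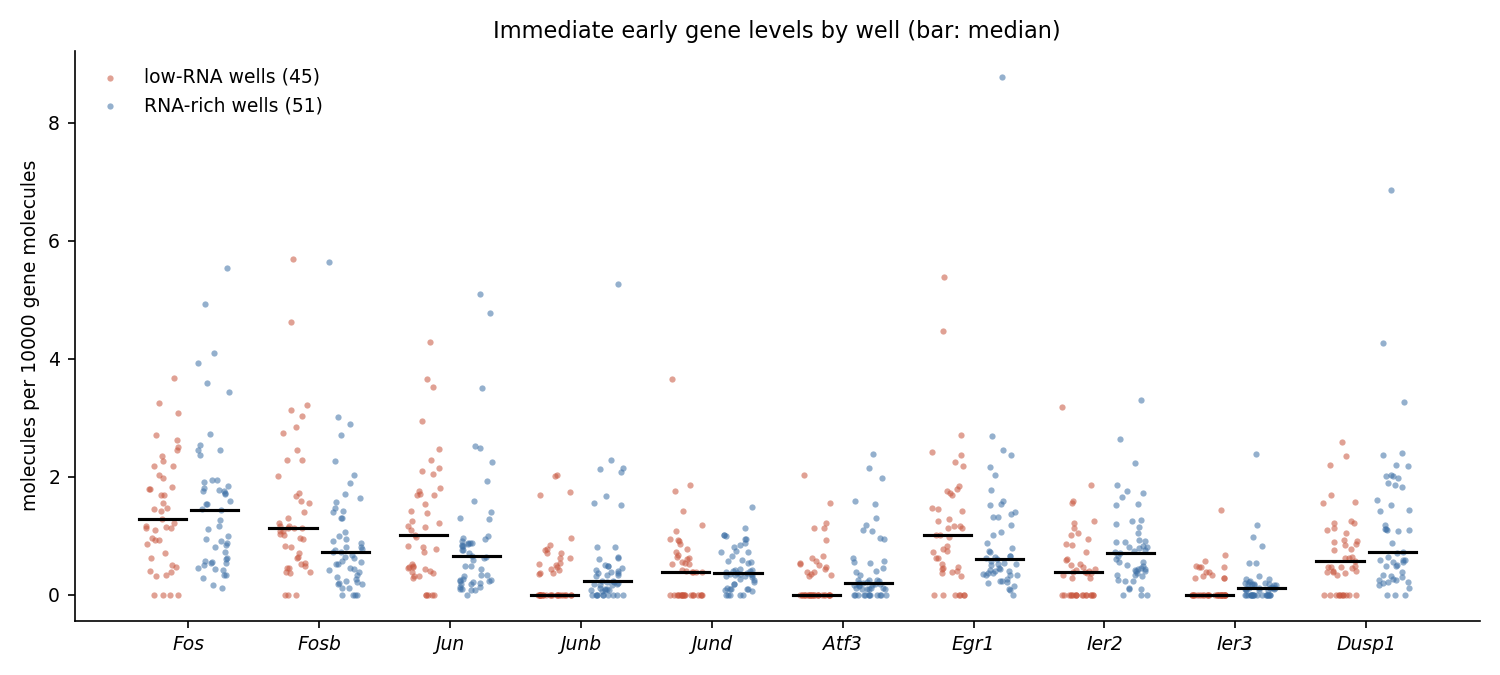
Level of each immediate early gene in every well, in molecules per 10000 gene molecules, with low-RNA wells (45) left of RNA-rich wells (51) for each gene and a bar at the median. The ranges overlap for every gene, and single RNA-rich wells stand high for Egr1 (8.78), Dusp1 (6.86) and Junb (5.26).

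Detection depends on depth. Thinned to 8000 gene molecules in every well, the expected share of wells with a Fos molecule was 65.1% in low-RNA wells and 61.7% in RNA-rich wells, against 91.1% and 100% without thinning. For Fosb the thinned shares were 63.04% in low-RNA wells and 44.9% in RNA-rich wells, and for Jun 57.1% and 42.4%. Dusp1 went the other way, with 41.9% in low-RNA wells and 49.8% in RNA-rich wells. The median over the 10 genes was 37.02% in low-RNA wells and 42.8% in RNA-rich wells. No well had all of its immediate early molecules from 1 or 2 genes: low-RNA wells held molecules of 3 to 9 of the 10 genes (median 7) and RNA-rich wells of 6 to 10 (median 9).

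Set against RNA-rich wells, low-RNA wells had higher mean levels of Fosb (1.46-fold), Jun (1.29-fold), Egr1 (1.19-fold) and Jund (1.15-fold). Without wells C03, H03 and H12 the ratio of Jun was 1.21. Ratios of low-RNA over RNA-rich wells were below 1 for Fos (0.902), Ier3 (0.726), Atf3 (0.683), Junb (0.672), Ier2 (0.633) and Dusp1 (0.603). None of the 10 reached a 2-fold difference, so 0 of 10 were higher and 0 of 10 lower, while 5.03% of the 7210 genes whose mean level reached 0.1 were at least 2-fold higher and 11.5% at least 2-fold lower. At 1.5-fold, 0 of 10 were higher, against 11.2% of genes, and 2 of 10 (Ier2 and Dusp1) were lower, against 34.8%. Ratios above 1 were those of 4 of the 10 genes and of 29.6% of all genes. The median ratio was 0.814 over the 10 genes and 0.780 over all genes tested. The direction of the 4 higher genes depended on the scale: per spike-in molecule all 10 were lower in low-RNA wells, at 0.190 to 0.462, as were 89.3% of genes at least 2-fold, with a median ratio of 0.254. Without mitochondrial genes in the total, 5 ratios were above 1 and 5 below, from 0.759 to 1.84.

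Pooled molecules gave the counting precision of these ratios. For Fosb, 134 molecules in low-RNA wells and 561 in RNA-rich wells gave a ratio of 1.38 with a 95% interval of 1.13 to 1.67. For Dusp1, 75 molecules in low-RNA wells and 707 in RNA-rich wells gave 0.613 (0.476 to 0.778). The intervals of Egr1 (1.02 to 1.51), Ier2 (0.506 to 0.908) and Junb (0.493 to 0.987) also left out 1, and those of the other 5 genes held it. They cover counting error only, not the differences between wells.

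**Figure D2:**
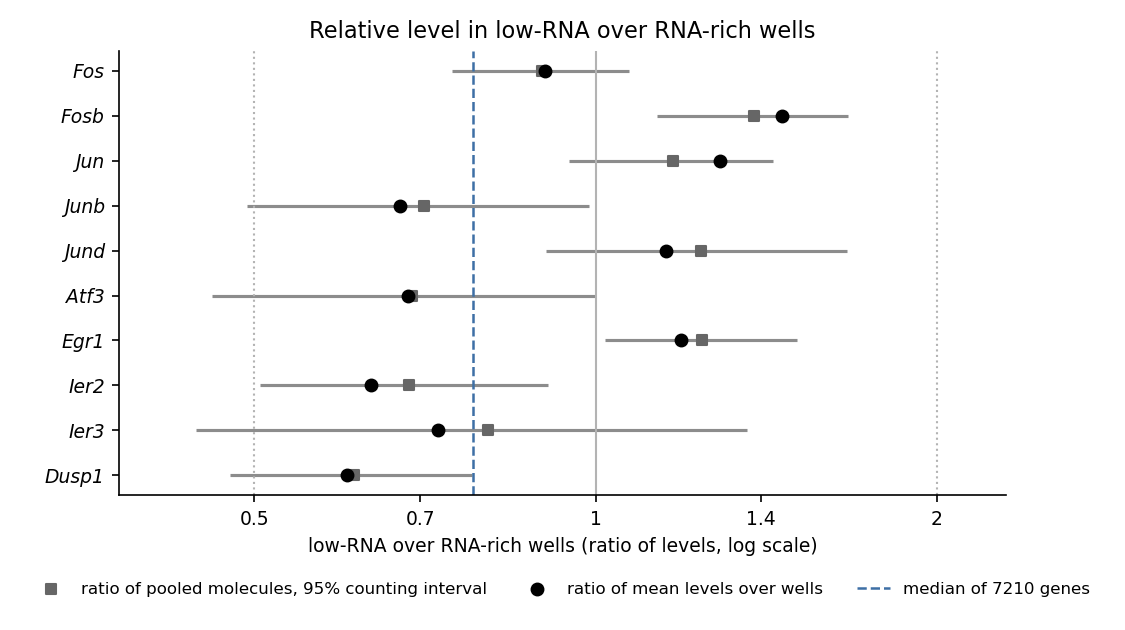
Ratio of the level in low-RNA wells over that in RNA-rich wells for each gene, on a log axis, from mean levels over wells (circles) and from pooled molecules (squares, with 95% counting intervals). Dotted lines mark 2-fold, and the dashed line the median of 7210 genes (0.780). All 10 genes lie between the 2-fold lines, with Fosb highest (1.46) and Dusp1 lowest (0.603).

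The order of the genes by mean level was not the same in the 2 ranges. In low-RNA wells Fosb, Fos, Jun and Egr1 led with means of 1.42, 1.41, 1.21 and 1.17, and the pooled counting intervals of neighbours overlapped among these 4. The step between Egr1 and Dusp1 (0.711) was the only one at which intervals lay apart. In RNA-rich wells Fos (1.57) led, followed by Dusp1 (1.18), Egr1 (0.984), Fosb (0.972), Jun (0.937), Ier2 (0.828), Junb (0.577), Atf3 (0.459), Jund (0.446) and Ier3 (0.209). Intervals overlapped there between Egr1 and Fosb, Fosb and Jun, Junb and Atf3, and Atf3 and Jund. The spread over wells exceeded every one of these steps: Fos was above Dusp1 in 32 of 51 RNA-rich wells and below it in 18. Divided by transcript length, Fos was highest in both ranges, at 0.644 per kb in low-RNA wells and 0.714 per kb in RNA-rich wells. Per length the long Fosb transcript ranked 4 in low-RNA wells and 7 in RNA-rich wells, and the short Ier2 transcript 6 and 3. Because molecules and not reads were counted, these levels need no correction for length. The ranks per length are therefore no better order than that by level.

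The highest of the 10 levels was tied between genes in 9 low-RNA wells and 3 RNA-rich wells. Counting ties for each gene, Fos was highest in 14 low-RNA wells, Fosb and Egr1 in 12 each and Jun in 11, against 16, 5, 6 and 6 RNA-rich wells in the order Fos, Fosb, Egr1 and Jun. Without tied wells Jun led in 11 low-RNA wells, Fosb in 9, Fos in 8 and Egr1 in 6. Dusp1 was highest or tied in 3 low-RNA wells and 10 RNA-rich wells.

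Variation between wells was set against that of the spike-in RNAs, which received the same amount in every chamber. The squared coefficient of variation of each gene was divided by the value fitted to spike-ins at the same mean, and a gene was called above technical noise where this ratio was at least 2 both with all wells and without its highest well. In RNA-rich wells 6 of the 10 genes were above technical noise, whereas 6.32% of the 7768 genes averaging 1 molecule or more per well were. They were Junb (4.89), Jun (4.21), Dusp1 (4.18), Fosb (3.47), Fos (3.16) and Atf3 (2.68). The remaining 4 were not called: Egr1 had a ratio of 5.72 that became 1.85 without well B05, Ier3 one of 2.57 that became 1.28 without well E02, and Ier2 and Jund were at 1.91 and 0.920. Jund was thus as even between wells as spike-ins of its abundance. The median ratio was 3.32 over the 10 genes and 1.32 over all genes tested.

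In low-RNA wells 0 of the 7 genes that averaged 1 molecule or more were above technical noise, against 0.519% of 2695 genes, and the highest ratio was that of Egr1 (0.699). The median over all genes tested there was 0.446, so the spike-in fit lay above most genes in that range. The counts there were small, with a mean of 3.17 molecules for Fos. Thinned to 20000 gene molecules, a setting chosen after the data were seen, RNA-rich wells also gave 0 of the 10 genes, and 1.36% of genes. Over all 96 wells 0 of 10 were called, against 5.91% of genes. The 6 calls therefore apply to the depth and the wells in which they were made. Without the 9 wells with high keratin levels described further on, Fos, Jun and Junb kept the call and Fosb, Atf3 and Dusp1 did not.

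**Figure D3:**
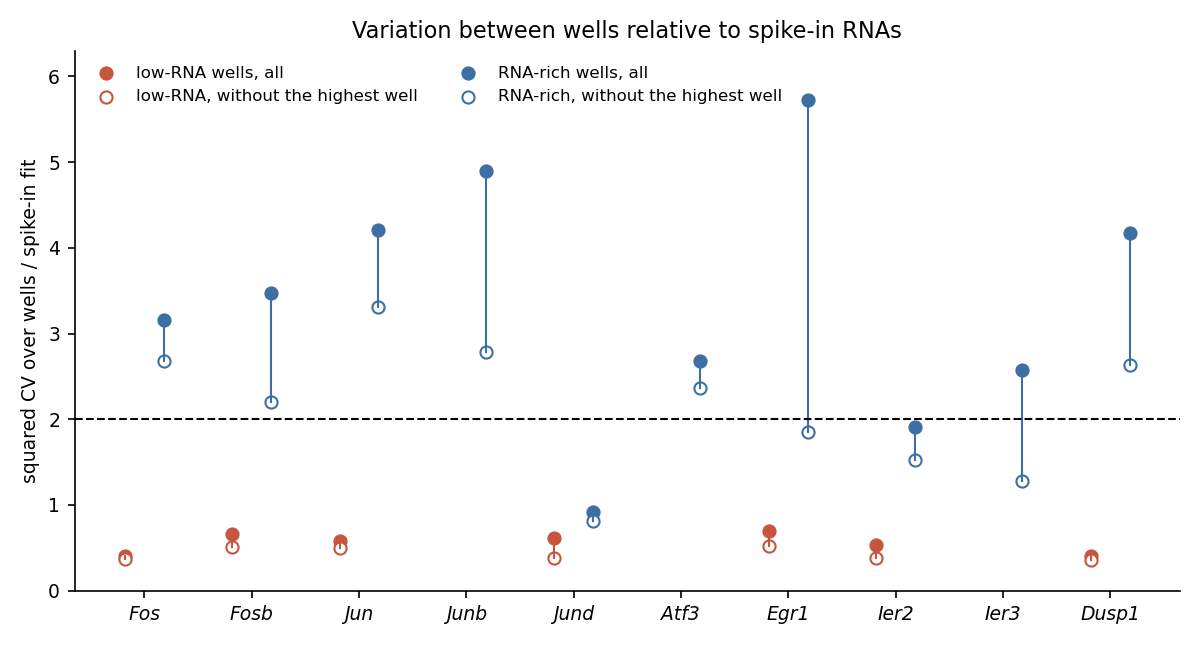
Squared coefficient of variation (CV) over wells divided by the spike-in fit for each gene, in low-RNA wells (left of each pair) and RNA-rich wells, with all wells (filled) and without the highest well (open). The dashed line marks a ratio of 2. In RNA-rich wells Junb, Jun, Dusp1, Fosb, Fos and Atf3 stay above it both ways, whereas Egr1 is at 5.72 with all wells and 1.85 without the highest.

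Several of the 10 genes were high in the same RNA-rich wells. Spearman's rho between levels, over 51 wells that share a chip, a culture and the gene total used as divisor, was above 0 for 40 of 45 pairs, with a median of 0.183. It was highest between Fos and Fosb (0.537). Fos, Fosb, Jun, Atf3 and Dusp1, a set put together after the values were seen, had rho of 0.307 to 0.537 in all 10 of their pairs. With the same 5 genes Junb had rho of 0.432 (Dusp1), 0.426 (Fosb), 0.360 (Atf3), 0.281 (Jun) and 0.174 (Fos). Egr1 had lower values with these 5 genes, 0.029 with Atf3 at the lowest and 0.287 with Fos at the highest, and 0.369 with Ier2. The lowest value was that of Ier2 with Ier3 (-0.238). For comparison, the median rho of each of the 10 genes with 7764 genes lay between -0.001 and 0.053. Fos, Fosb, Jun, Atf3 and Dusp1 each had 5 others of the 10 in their top 5% of genes by rho. Junb and Egr1 had 3, Jund and Ier2 2, and Ier3 0. In low-RNA wells the 21 pairs among the 7 genes that could be compared had a median of 0.083 and 0 pairs of at least 0.3, with rho of 0.024 for Fos with Fosb. Thinning of RNA-rich wells to 8000 gene molecules lowered the median of the 10 pairs of the set to 0.140, against 0.406 without thinning.

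**Figure D4:**
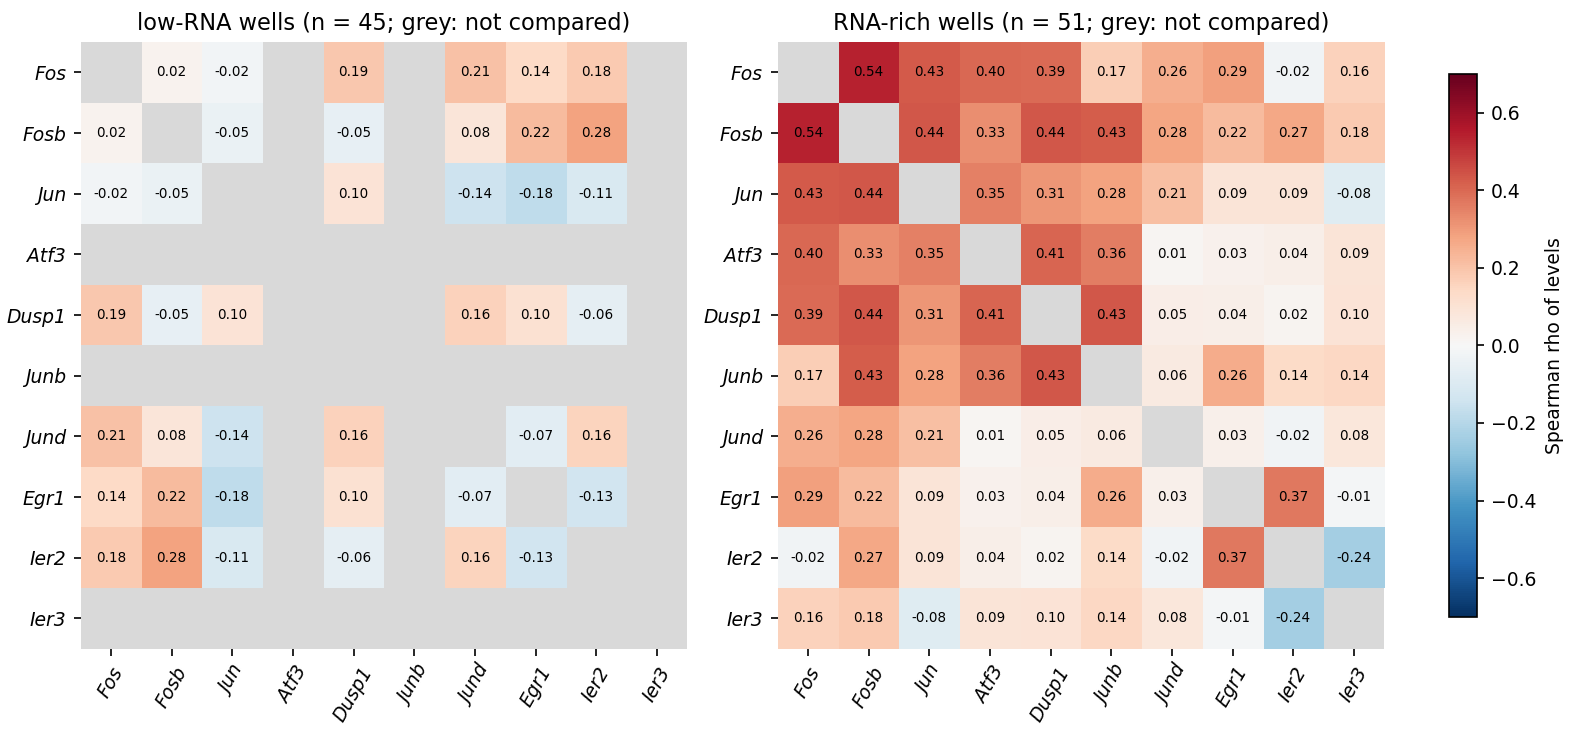
Spearman's rho between the levels of each pair of immediate early genes in low-RNA wells (left, n = 45) and RNA-rich wells (right, n = 51); grey cells were not compared, because a gene had a mean under 1 molecule. On the right the 10 pairs among Fos, Fosb, Jun, Atf3 and Dusp1 lie between 0.307 and 0.537, and 0 of the pairs on the left reach 0.3.

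Among 7764 genes averaging 1 molecule or more, Fosb had Fos as its nearest gene by rho. The nearest gene of Dusp1 was Cyr61, a secreted matrix protein gene that is itself an immediate early gene, at 0.685, and that of Jun was Klf6, a Krüppel-like factor gene, at 0.554. Fos was nearest to the adaptor protein gene Crk (0.596), Junb to Gng5, a G protein subunit gene (0.626), and Atf3 to Dhrs1 (0.601). The 10 other genes whose level over RNA-rich wells went most closely with the summed level of the immediate early genes were Cyr61 (rho 0.677), the claudin genes Cldn4 (0.586) and Cldn6 (0.574), Perp, a desmosome gene (0.577), the keratin gene Krt8 (0.568), the spectrin gene Spnb2 (0.561), Amn1 (0.555), Phip (0.553), the orphan nuclear receptor gene Nr4a1 (0.551) and Ssbp3 (0.551). Krt8 had 73.5% of its molecules from unique reads and is less certain. Of 7755 genes, 94 had rho of at least 0.4, and the median was 0.033. Without the 9 keratin-high wells Cyr61 was still first, at 0.712, while Krt8 was at 0.436 and ranked 57.

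The summed level of the 10 genes ran from 3.41 over a median of 7.62 to 16.8 in low-RNA wells, against 1.92, 6.90 and 27.9 in RNA-rich wells. Both extremes thus lay in the RNA-rich range. In well B05, the highest, Egr1 had 100 molecules, Fos 63, Jun 58, Ier2 30 and Jund 0. Well A11 followed at a summed level of 20.4, led by Fosb (5.64) and Ier2 (3.31). Wells A03 (17.3), G12 (16.1) and H05 (15.6) came next, led by Junb (5.26), Jun (4.78) and Dusp1 (6.86). Each of the 5 highest wells was thus led by another gene. In low-RNA wells B04 was highest at 16.8, with 16 of its molecules from Egr1.

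The summed level did not go with the RNA content of RNA-rich wells (rho -0.021 with gene molecules). It went with marker sums: rho was -0.471 with the 13 ES cell markers, 0.461 with the 14 feeder markers and 0.442 with 9 trophectoderm markers, and -0.381, 0.339 and 0.258 without the keratin-high wells. In the 5 highest wells the ES cell sum had a median of 40.2, against 109 in the other 46 RNA-rich wells, and the feeder sum 22.2 against 5.38. In well B05 the feeder sum was 4.92. The highest feeder sum, 149 in well D02, went with a summed immediate early level of 2.89. Well E02, with a feeder sum of 90.98, was at 8.09. The feeder sum was mostly Lgals1, S100a6 and Tagln, at means of 7.98, 3.77 and 2.07 in RNA-rich wells. Col1a1 and Col1a2 were at 0.0822 and 0.118 there. The ES cell sum was mostly Dppa5a, at a mean of 70.3 there. Pou5f1, less certain with 42.2% unique reads, was at 1.797, Sox2 at 0.8603 and Nanog at 0.6813. The part of these markers in the summed level was not tested. With 10 heat shock genes rho was -0.178, and -0.364 without the keratin-high wells. Trophectoderm markers other than Hand1 and Elf5, 7 of 9, were detected in both ranges. Their sum had a median of 6.21 in low-RNA wells and 3.61 in RNA-rich wells. It was mostly Krt8 and Krt18, at means of 4.96 and 5.73 in RNA-rich wells, which with Krt19 set the keratin-high wells. Cdx2, Gata3 and Eomes had means of 0.0237, 0.0429 and 0.0503 there, and 1, 4 and 6 molecules in low-RNA wells.

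Of the RNA-rich wells, 9 had a summed level of the keratin genes Krt8, Krt18 and Krt19 of at least 15. Immediate early genes summed to 12.3 ± 4.60 in these keratin-high wells and 7.26 ± 4.71 in the other 42 RNA-rich wells (SD over wells), a ratio of 1.70. Higher by at least 2-fold were Atf3 (2.96), Dusp1 (2.73), Fosb (2.60), Junb (2.17) and Jun (2.10), 5 of the 10 genes, whereas 8.48% of 7338 genes were. Egr1 was lower, at 0.461, 1 of 10 against 9.76% of genes. Its mean in the other RNA-rich wells, 1.09, included well B05 at 8.78, and the ratio without B05 was not calculated. By median, Egr1 was at 0.364 in keratin-high wells and 0.657 in the others, which is not past 2-fold. Fos, the most abundant of the 10 in RNA-rich wells, had a ratio of 1.29. The median ratio was 1.78 over the 10 genes and 0.985 over all genes tested.

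Dusp1 levels were 0.502 at the lowest, 1.82 at the median and 6.86 at the highest in keratin-high wells, against 0, 0.612 and 2.41 in the other wells. Fosb was at 0.273, 1.58 and 5.64 in keratin-high wells and 0, 0.625 and 3.01 in the others. Atf3 was at 0.163, 0.530 and 2.39 in keratin-high wells and 0, 0.170 and 1.98 in the others. All 9 keratin-high wells thus held molecules of these genes, and the groups overlapped in each case. Jun was at 0.480, 0.879 and 4.78 in keratin-high wells, against 0, 0.604 and 5.09 in the others, so its medians were closer than its means. Single wells decided part of the calls: without A11 the ratio of Jun was 1.96 and that of Fosb 1.998, without G12 Jun was at 1.60 and Junb at 1.88, and 3 genes were past 2-fold in each case. Without D08 Jun was at 1.999, and Junb was at 1.89 without H05 and 1.897 without A06, which left 4 genes each. Without G10 Egr1 was at 0.501 and no longer past 2-fold. Atf3 and Dusp1 were past 2-fold without any one of the keratin-high wells. The other RNA-rich wells, B05 among them, were not left out singly.

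The keratin-high wells differed in much else. Their feeder sum ran from 10.6 to 56.4 with a median of 31.7, against 2.91 to 149 with a median of 4.97 in the other RNA-rich wells, and their ES cell sum a median of 44.1, against 113. Gene molecules were similar, with means of 112724 and 114816. The part of these differences in the immediate early levels was not tested. The groups were set by keratin levels, which are not those of the 10 genes.

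**Figure D5:**
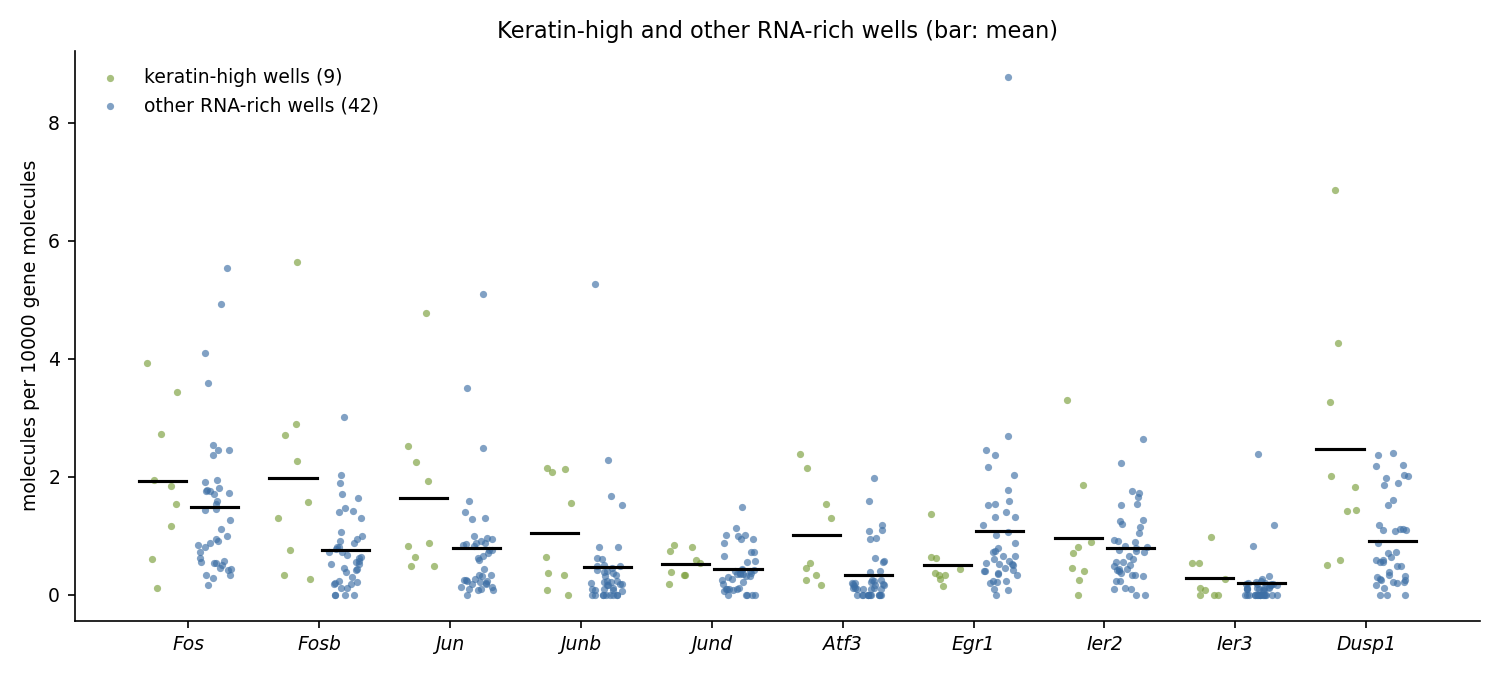
Level of each immediate early gene in keratin-high wells (9, left of each pair) and in the other RNA-rich wells (42), in molecules per 10000 gene molecules, with a bar at the mean. Means of Fosb, Jun, Junb, Atf3 and Dusp1 are at least 2-fold higher in keratin-high wells, that of Egr1 is lower, and the wells of both groups overlap.

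Other immediate early transcription factor genes were compared in the same way. Of 19, 11 were abundant enough to compare; 0 were at least 2-fold higher in low-RNA than in RNA-rich wells and 1, Ier5, lower (0.420, on 10 and 146 molecules), against the 5.03% and 11.5% of all genes given above. The most abundant were Klf6 at 2.29 ± 1.76 in low-RNA wells and 2.68 ± 2.49 in RNA-rich wells, Klf4, Klf10 and Klf2. Klf4 had 38.7% of its molecules from unique reads and is uncertain. Klf6 (7.33) and Klf2 (2.67) were the 2 of 11 above technical noise in RNA-rich wells, against 6.32% of all genes. They differed in how they went with the summed immediate early level: rho was 0.495 for Klf6 and -0.420 for Klf2, a gene of the naive ES cell state. In keratin-high wells Klf6 was at 4.75 ± 2.84 and Klf2 at 0.219 ± 0.201, against 2.23 ± 2.20 and 0.696 ± 0.735 in the other RNA-rich wells.

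Among 33 other immediate early effector genes, 25 were compared. At least 2-fold higher in low-RNA wells were 2 of 25, and 2 of 25 were lower, against 5.03% and 11.5% of all genes. The higher were Nfkbia, the inhibitor of NF-κB (2.11), and Gadd45a, a gene of the DNA damage response (2.96). The lower were Zfp36, which promotes decay of short-lived mRNAs (0.484), and Errfi1, an inhibitor of the EGF receptor (0.262). Errfi1 stood on 5 molecules in low-RNA wells and 124 in RNA-rich wells. The most abundant were Odc1, Mcl1, Cyr61 and Nfkbia, and Odc1 had 12.6% unique reads and is uncertain. Above technical noise in RNA-rich wells were 5 of 27, against 6.32% of all genes. They were Cyr61 (8.63), Phlda1 (7.90), the antiproliferative gene Btg2 (6.06), the kinase gene Plk2 (5.71) and Ctgf, a matrix protein gene related to Cyr61 (4.67). Cyr61 was at 1.38 ± 1.16 in low-RNA wells and 2.14 ± 2.40 in RNA-rich wells. With the summed level, 26 genes had a median rho of 0.219, with Btg2 at 0.464, Zfp36 at 0.439 and Ctgf at 0.436, and 8 of the 26 were in the top 5% of all genes. Of 12 transcription factor genes 4 were in the top 5%, with a median rho of 0.247.

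Upstream kinases and factors relay the signal and are regulated largely by phosphorylation. Of 24 genes 17 were compared, 0 were at least 2-fold higher in low-RNA wells and 3 lower, against 5.03% and 11.5% of all genes. The 3 were Crem (0.151), Mapk3, which encodes ERK1 (0.257), and Rps6ka1, which encodes an ERK-activated kinase (0.465). Crem and Mapk3 had 3 molecules each in low-RNA wells, and their pooled ratios had 95% counting intervals of 0.032 to 0.472 and 0.0377 to 0.562. Braf, Atf2 and Atf1 were among the most abundant, and Atf1, with 64.8% unique reads, is less certain. In RNA-rich wells 0 of the 17 were above technical noise, against 6.32% of all genes. With the summed level their median rho was 0.062. Of 10 heat shock genes 8 were compared. Against the same shares of all genes, 0 were higher in low-RNA wells and 1, the co-chaperone gene Dnajb1, lower (0.215). Hsp90aa1 (6.67), Hspb1 (4.73) and Hspe1 (2.59) were above technical noise in RNA-rich wells, 3 of 8 against 6.32% of all genes. However, Hsp90aa1 had 10.3% and Hspb1 13.6% unique reads, and both are uncertain. Hspa8, with 4.99%, is uncertain as well, and Hspd1, with 52.4%, is less certain. Hspa8, Hspd1 and Hspe1 were among the most abundant. The median rho of the 8 heat shock genes with the summed immediate early level was -0.091.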

How the data were processed

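The deposited values are molecule counts per feature and well, per the file headers. The authors aligned reads with Bowtie to mm10 (GRCm38), per the submitters' processing notes; reads that matched several places went to their most 5′ exonic match, per the file headers. The labels list 192 samples, the same 96 wells sequenced directly and after 9 further PCR cycles; each column carries a barcode that both forms share, so the 2 forms were not compared. No doublet caller was run and chamber images were not used, so empty or damaged chambers were not recognised.

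Counts of genes, without spike-ins and repeats, were scaled to 10000 per well. Technical variation was modelled as a/mean + b for the squared CV, on 62 of 96 spike-ins, those averaging 0.1 molecules or more (a = 3.33, b = 0.00970; gamma model, statsmodels 0.14.6). Intervals are exact 95% Poisson or binomial intervals, and their ratios conditional ones, for counting error only. Python 3.11.15, numpy 2.4.6, scipy 1.17.1 and pandas 2.3.3 were used, and scripts were tested on simulated data.

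The genes, lists, ranges and thresholds were chosen with earlier results of these data known. Named were the 10 genes, the 4 most abundant and those past 2-fold with at least 20 molecules in each of 4 lists of related genes, and the 10 genes most like the summed level; 1 gene that this rule names is not reported here. Nearest genes, other genes above technical noise and examples of rho were named after their values were seen. Alternatives changed the scaling, filter, fold, depth, noise threshold and wells.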

Additional observations from a re-analysis of the deposited data

How the results depend on the processing

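Relative levels between the RNA ranges depended on the divisor. Per spike-in molecule 10 of the 10 genes were at least 2-fold lower in low-RNA wells, with 0.153% of all genes higher, 89.3% lower and a median ratio of 0.254. Without mitochondrial genes in the total, 9.6% of genes were higher and 4.05% lower, and with no filter on low levels 10.7% and 26.6%; none of the 10 genes was past 2-fold under either. At a fold of 1.5, 2 of the 10 (Ier2 and Dusp1) were lower, with 11.2% of genes higher and 34.8% lower.

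In RNA-rich wells the number of genes above technical noise was 3 without keratin-high wells, 1 (Jun) at a ratio of at least 3, with 2.27% of all genes, and 0 after thinning to 20000 gene molecules, with 1.36% of genes. The share of all genes was 11.2% with spike-in scaling, 17.3% with none and 4.18% with the technical level corrected for the mean inverse total; 6, 7 and 5 of the 10 genes were called under these, since Egr1 gained the call with no scaling and Fosb lost it under the correction. In low-RNA wells it was 0.986% with no scaling and 0.297% at a ratio of at least 3. The median rho of Fos, Fosb, Jun, Atf3 and Dusp1 was 0.140 after thinning to 8000. The median share of wells with a molecule was 69.97% in low-RNA and 67.97% in RNA-rich wells after thinning to 20000, and 68.9% and 93.1% without thinning. Only 29 of the 45 low-RNA wells reached 20000 gene molecules, against all 51 RNA-rich wells, so the low-RNA shares are over different wells. Leaving out each keratin-high well gave 3 to 5 of the 10 genes at least 2-fold higher and 0 to 1 lower. The thinning to 20000 for noise and the alternatives of the keratin-high comparison were chosen after the data were seen, and the cause of these changes was not tested.

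No paired analysis was possible because each column carries a barcode shared by the 2 forms of library, which also share the replicate number. With 1 culture, nothing here measures variation between cultures.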
